A study of Solanum lycopersicum with 6 samples.

Results

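The flavonoid pathway of tomato fruit was followed through 8 loci, 7 of which stand for enzymes of flavonoid synthesis and 1 for the regulator MYB12. They were taken as a fixed list of locus identifiers, with their names, out of the 35768 gene models in the table. The tissue was pericarp (fruit wall) from the shoulder, the stalk end of the fruit, of the cultivar Ailsa Craig, harvested from greenhouse plants at 30 DPA (days post anthesis). One group of 3 libraries came from wild type (WT) plants and the other 3 from slgols2 knock-out plants, whose mutation was made by CRISPR-Cas9 editing, and no treatment separated them. The labels do not say how many edited lines or plants the slgols2 libraries represent, and p-values therefore reflect only how these libraries vary, possibly for technical reasons. The table carries identifiers only. For 6 of the 8 names (CHS1, CHS2, CHI1, F3H, F3'H and MYB12) a gene of that name lay on the same chromosome, within 5% of the same gene rank, in the RefSeq assembly SLM_r2.1, while CHI-like and FLS had no entry by name there.

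Flavonoids are built from coumaroyl-CoA, the product of the general phenylpropanoid pathway, and malonyl-CoA. Chalcone synthase makes naringenin chalcone, the yellow pigment of tomato skin, and chalcone isomerase closes its ring to naringenin. Flavanone 3-hydroxylase and flavonol synthase lead on to the flavonols, whose main tomato form is the quercetin glycoside rutin, and flavonoid 3'-hydroxylase adds the second hydroxyl group that sets quercetin apart from kaempferol. MYB12 is an R2R3-MYB transcription factor that switches these steps on in the fruit epidermis, and its loss gives the colourless skin of pink-fruited tomatoes.

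Values are given as FPKM, fragments scaled to the length of the gene and to the depth of the library. The steps between low values gave the depth of each library, 15590000 to 17940000 fragments, and from it the whole number of reads behind each value. The libraries were not equally alike: slgols2 replicates 1 and 2 correlated at 0.957 over all tested genes, but replicate 3 at only 0.849 and 0.869 with them. Small heat shock protein loci, a list of 10 of which 8 were detected, summed to 23395 and 15130 FPKM in slgols2 replicates 1 and 2, 471 FPKM in replicate 3 and between 531 and 1087 FPKM in WT. The locus recalled as GolS2 held 14, 5 and 0 reads in WT and 1, 0 and 1 reads in slgols2, too few to check the genotype labels.

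All 8 loci were expressed and all were tested. The 7 loci CHS1, CHS2, CHI1, F3H, F3'H, FLS and MYB12 had lower means of log2(FPKM + 1) in slgols2 and CHI-like a higher one, where 49.9% of the 15695 tested gene models were lower. The median log2 change was -0.54 over the 8 loci and 0.00128 over all tested models. None of the 8 passed an adjusted p of 0.05 (limma, Benjamini-Hochberg over all tested genes), a threshold that 0.229% of the tested gene models passed. At an unadjusted p under 0.05, CHS1 and F3'H were lower in slgols2 and no member was higher, where 6.72% of all tested gene models were lower by that measure. CHS1 and F3'H were also the members whose WT and slgols2 values did not overlap, both lower in slgols2, where 9.59% of all tested gene models were lower without overlap. When limma's sample quality weights were used, which weighted slgols2 replicate 2 at 4.83 and replicate 3 at 0.173, CHS1, CHI1, F3'H and FLS passed the adjusted threshold, all lower, but so did 12.9% of all tested gene models, 6.85% of the tested models being lower.

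**Figure D1:**
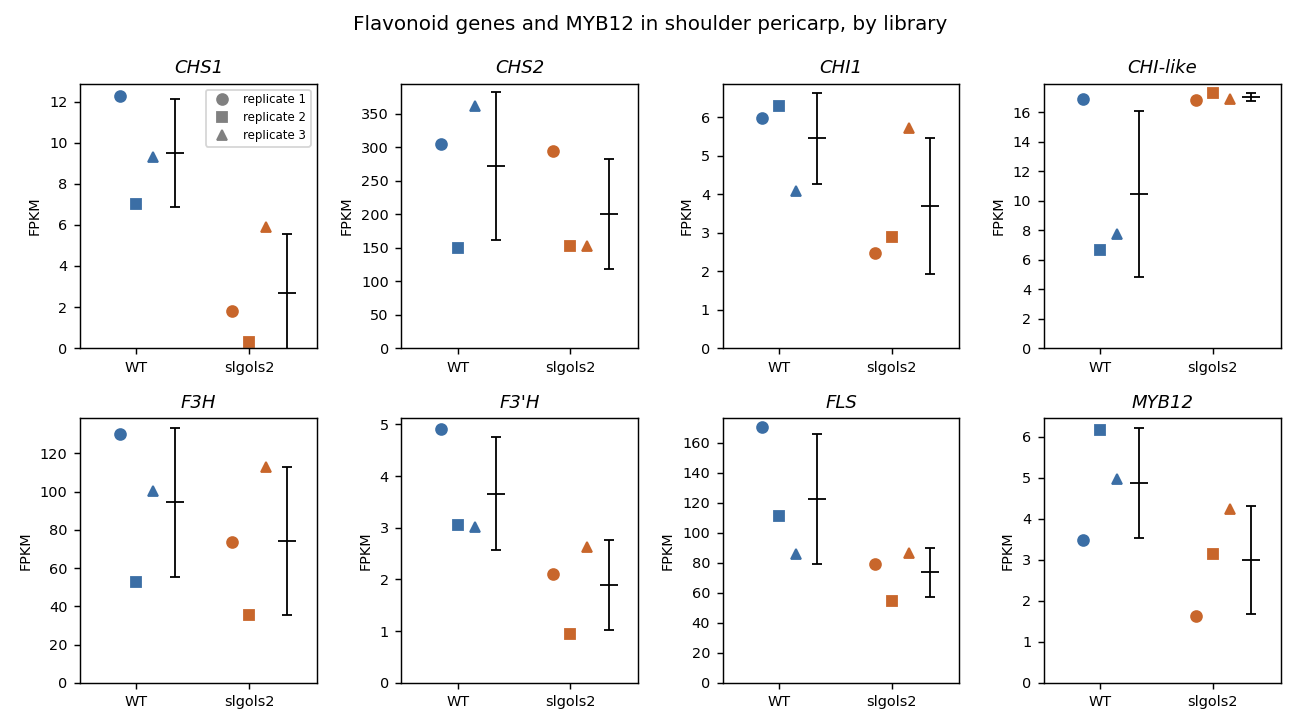
FPKM (vertical axes, from 0) of the 8 loci in WT (blue) and slgols2 (orange) shoulder pericarp. Each symbol is 1 library, the shape gives the replicate number, and the black marks show the mean and SD of 3 libraries, with the SD bar of CHS1 in slgols2 ending at the axis. CHS1 and F3'H are the panels in which every WT library lies above every slgols2 library, and in the CHI-like panel the 3 slgols2 libraries sit between 16.8 and 17.3 FPKM.

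Nearly all chalcone synthase transcripts came from CHS2 in both genotypes. CHS2 (Solyc05g053550.3, chromosome 5) stood at 305, 149 and 362 FPKM in WT replicates 1, 2 and 3 and at 295, 153 and 153 FPKM in slgols2 replicates 1, 2 and 3. The low WT library lay below all 3 slgols2 libraries, so the groups overlapped throughout. The WT libraries averaged 272 ± 110.1 FPKM and the slgols2 libraries 200.3 ± 82.0 FPKM (SD, n = 3 each), and the log2 change of -0.42 had a 95% interval from -1.46 to 0.63 (limma adjusted p = 0.739). CHS2 had the highest mean level of the 8 loci, followed by FLS and F3H, on this scale per gene length.

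CHS1 (Solyc09g091510.3, chromosome 9), the second chalcone synthase gene, had the largest difference among the members. It stood at 12.3, 7.01 and 9.29 FPKM in WT replicates 1, 2 and 3, from 462, 261 and 313 reads. In slgols2 replicates 1, 2 and 3 it stood at 1.81, 0.288 and 5.90 FPKM, from 70, 10 and 208 reads. All 3 slgols2 values were below the lowest WT value, but they were spread widely, with replicate 3 closest to WT and replicate 2 at 10 reads. The 10 reads of that library have an exact Poisson 95% interval from 4.80 to 18.4 reads, which covers counting error only. WT averaged 9.52 ± 2.63 FPKM and slgols2 2.66 ± 2.90 FPKM (SD, n = 3 each), a ratio of 3.57. On the log2(FPKM + 1) scale, which understates the change of low genes, the difference was -1.82 with a standard error of 0.59 and a 95% interval from -3.25 to -0.38 (limma unadjusted p = 0.0206, adjusted p = 0.332).

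The division of reads between CHS1 and CHS2 followed the same libraries. CHS1 held 5.11% of the reads of both loci in WT replicate 1 (Wilson 95% interval 4.68% to 5.58%), 5.92% in replicate 2 (5.26% to 6.65%) and 3.32% in replicate 3 (2.98% to 3.70%). In slgols2 it held 0.813% in replicate 1 (0.644% to 1.03%), 0.251% in replicate 2 (0.137% to 0.462%) and 4.91% in replicate 3 (4.30% to 5.61%). The share in slgols2 replicates 1 and 2 was thus below every WT share by more than counting error, and that in replicate 3 lay inside the WT range (two-sided exact permutation p = 0.20 over the 6 libraries, n = 3 each, with 0.10 the smallest possible). Similar gene copies can share reads, and how the authors' counting divided such reads is not given in the sources used here. Summed over both copies, WT reached 281 ± 111.8 FPKM and slgols2 203.0 ± 81.3 FPKM (SD, n = 3 each), and the groups overlapped (two-sided exact permutation p = 0.30).

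CHI1 (Solyc05g010320.3, chromosome 5), the chalcone isomerase locus, stood at 5.97, 6.28 and 4.09 FPKM in WT and at 2.48, 2.89 and 5.71 FPKM in slgols2 replicates 1, 2 and 3. Replicates 1 and 2 of slgols2 were below every WT library and replicate 3 was within the WT range. The means were 5.45 ± 1.19 and 3.69 ± 1.76 FPKM (SD, n = 3 each), with a log2 change of -0.50 (95% interval -1.21 to 0.20, limma adjusted p = 0.553). The gene length behind its FPKM values was 1662 bases. RefSeq places CHI1 and CHI2 side by side here, and that length was 0.610 of the span of CHI1 (2724 bases) but 0.954 of the span of CHI2 (1743 bases), so which of the neighbouring isomerase genes this model covers is uncertain.

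CHI-like (Solyc05g052240.3, chromosome 5) ran the other way. It stood at 16.9, 6.67 and 7.76 FPKM in WT replicates 1, 2 and 3, and at 16.8, 17.3 and 16.9 FPKM in slgols2. Chalcone isomerase-like proteins lack isomerase activity, and in Arabidopsis such a protein binds chalcone synthase and favours naringenin chalcone over by-products. The 3 slgols2 libraries were nearly equal, and WT replicate 1 had the same level as they did, so that the difference between the means, from 10.5 ± 5.63 FPKM (WT) to 17.0 ± 0.259 FPKM (slgols2; SD, n = 3 each), came from WT replicates 2 and 3. The log2 change was 0.76 with a 95% interval from -0.04 to 1.56 (limma unadjusted p = 0.0587, adjusted p = 0.435).

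F3H (Solyc02g083860.3, chromosome 2), flavanone 3-hydroxylase, varied more within the genotypes than between them. Its values were 130.2, 52.7 and 100.1 FPKM in WT and 73.8, 35.5 and 113 FPKM in slgols2 replicates 1, 2 and 3, and the log2 change of -0.40 had an interval from -1.64 to 0.84 (limma adjusted p = 0.793). Without slgols2 replicate 2 the difference had the opposite sign, at 0.05 on the log2 scale (limma adjusted p = 0.985, with a range from 0.134 to 0.985 over the alternatives).

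FLS (Solyc11g013110.2, chromosome 11), flavonol synthase, stood at 170.5, 111 and 85.7 FPKM in WT and at 79.6, 54.8 and 86.4 FPKM in slgols2 replicates 1, 2 and 3. The groups met at their edge, where slgols2 replicate 3 exceeded WT replicate 3 by less than 1 FPKM. WT averaged 122 ± 43.5 FPKM and slgols2 73.6 ± 16.6 FPKM (SD, n = 3 each), with a log2 change of -0.70 (95% interval -1.47 to 0.08, limma unadjusted p = 0.0698, adjusted p = 0.456).

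F3'H (Solyc03g115220.3, chromosome 3), flavonoid 3'-hydroxylase, had the lowest mean FPKM of the 8 loci. It stood at 4.92, 3.04 and 3.02 FPKM in WT and at 2.11, 0.936 and 2.64 FPKM in slgols2 replicates 1, 2 and 3, so every slgols2 library was below every WT library, although replicate 3 only narrowly. The means were 3.66 ± 1.09 and 1.89 ± 0.869 FPKM (SD, n = 3 each), a ratio of 1.93, and the log2 change was -0.71 with a 95% interval from -1.41 to -0.02 (limma unadjusted p = 0.0464, adjusted p = 0.413). Its low FPKM goes with a long gene model. The length behind its values was 16030 bases, 3.01 times the RefSeq span of 5319 bases, whereas for CHS1, CHS2, F3H and MYB12 the ratio lay between 0.947 and 1.05. The reads themselves, 1375, 841 and 754 in WT and 606, 241 and 690 in slgols2, outnumbered those of CHS1 in every library, and reads from elsewhere in so long a model cannot be told apart from those of the enzyme's own exons.

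MYB12 (Solyc01g079620.3, chromosome 1) stood at 3.48, 6.17 and 4.97 FPKM in WT and at 1.62, 3.15 and 4.23 FPKM in slgols2 replicates 1, 2 and 3, from 100 to 366 reads per library. Replicates 1 and 2 of slgols2 lay below the WT libraries, and replicate 3 above the lowest of them. WT averaged 4.87 ± 1.35 FPKM and slgols2 3.0 ± 1.31 FPKM (SD, n = 3 each), a ratio of 1.62, with a log2 change of -0.58 (95% interval -1.32 to 0.15, limma unadjusted p = 0.101, adjusted p = 0.516).

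**Figure D2:**
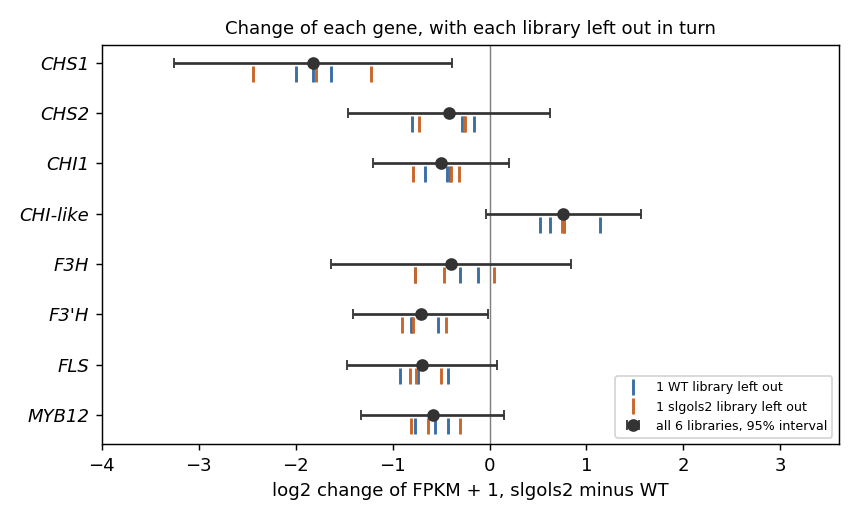
Log2 change of FPKM + 1 between slgols2 and WT (horizontal axis) for each locus. Black points and bars give the limma estimate and its 95% interval from all 6 libraries, and short strokes the estimates with 1 WT (blue) or 1 slgols2 (orange) library left out. CHS1 lies farthest from 0 at -1.82, CHI-like is the one locus above 0, and a stroke of F3H crosses 0.

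The slgols2 libraries differed among themselves. Relative to the WT mean, the median of log2(FPKM + 1) over the 8 loci was 0.37, -0.27 and -0.10 in the 3 WT libraries, and -0.56, -0.91 and -0.24 in replicates 1, 2 and 3 of slgols2. CHS1, F3H, F3'H and FLS had their lowest value of all 6 libraries in slgols2 replicate 2, while MYB12 and CHI1 had theirs in replicate 1. WT replicate 1 held the highest value of CHS1, F3H, F3'H and FLS. The 8 loci thus did not share 1 order of libraries.

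Markers of the epidermis, the cell layer in which tomato fruit flavonoids are made, were also lower in slgols2. Relative to the WT mean, their median log2 difference was -1.47, -0.86 and -0.29 in slgols2 replicates 1, 2 and 3. The median of the 8 loci was lowest in replicate 2, at -0.91, against -0.56 in replicate 1. MYB12 (-1.14, -0.48 and -0.14) and CHI1 (-0.87, -0.71 and 0.08) had the same order of slgols2 replicates as the markers. The other members did not, and CHS1, F3H, F3'H and FLS were lowest in replicate 2. Of the 11 loci on the epidermis list 9 were detected, and the loci recalled as SHN1 and SHN3 were at 0 in all 6 libraries. The summed level of the list was 613, 663 and 631 FPKM in WT and 166, 231 and 436 FPKM in slgols2 replicates 1, 2 and 3, with no overlap. Examples were CD1, a cutin synthase, at 241, 295 and 224 FPKM in WT and 37.8, 66.4 and 205 FPKM in slgols2, and GPAT6, an acyltransferase of cutin synthesis, at 82.2, 63.4 and 86.7 FPKM against 30.0, 41.9 and 54.7 FPKM. Like these, 6 of the 9 were lower without overlap, where 9.59% of all tested gene models were. The rest overlapped, TTS1 and CD2 among them. CD2 stood at 6.46, 9.25 and 8.31 FPKM in WT and 1.87, 4.74 and 13.7 FPKM in slgols2, with replicate 3 above every WT library. Each of the 9 had a lower mean in slgols2 (median log2 change -0.89), where 49.9% of all tested gene models were lower. No marker reached the adjusted threshold (lowest limma adjusted p = 0.0734). At an unadjusted p under 0.05, 6 of the 9 were lower, where 6.72% of all tested gene models were. In bulk tissue, fewer epidermal cells and less RNA of these genes per cell cannot be told apart. The mean of the epidermis sum in WT was 2.29 times that in slgols2, a ratio below that of CHS1 (3.57) and above those of CHS2, CHI1, F3H, F3'H, FLS and MYB12 (1.27 to 1.93). In that sum the most abundant markers weigh most. Marker by marker, the ratio ran from 1.18 (CD2) to 3.11. The markers TTS1 (1.51), CER6 (1.52) and GPAT6 (1.84) lay within the range of those flavonoid loci, and CD1 (2.46) and TTS2 (2.74) above it. The part of the epidermis in the levels of the 8 loci was not tested.

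**Figure D3:**
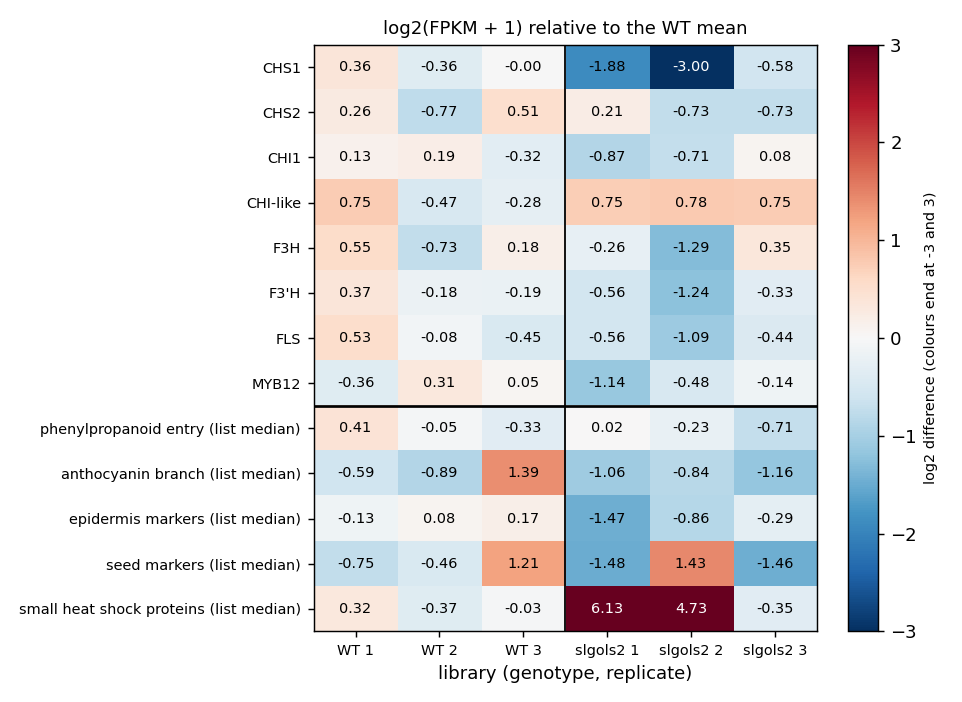
Difference of log2(FPKM + 1) from the WT mean in each library (columns) for the 8 loci (above the line) and the median over the tested members of 5 other lists (below it). Blue is lower and red higher than the WT mean, and colours end at -3 and 3 while the printed values do not. Epidermis markers run from -1.47 in slgols2 replicate 1 to -0.29 in replicate 3, and CHS1 is lowest in replicate 2 at -3.0.

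MYB12 and the genes it is known to regulate were compared across the 6 libraries. Pearson's r of log2(FPKM + 1) with MYB12 was 0.76 for CHI1, 0.56 for CHS1, 0.34 for F3'H, 0.27 for FLS, 0.05 for F3H, -0.31 for CHS2 and -0.74 for CHI-like. None of these 7 relations passed an exact permutation test after Benjamini-Hochberg adjustment over the 7, the lowest raw p being 0.0694 for CHI1 and 0.113 for CHI-like (adjusted p = 0.394 for both). Spearman's rho ran from -0.66 for CHI-like to 0.77 for CHI1, with exact permutation adjusted p of at least 0.416. When WT replicate 2 and slgols2 replicate 1, the libraries farthest from the median of MYB12, were left out, r was 0.26 for CHI1, 0.59 for CHS1 and -0.82 for CHI-like. As deviations from the mean of each genotype, r was 0.61 for CHI1, 0.13 for CHS1 and -0.53 for CHI-like. For CHS2 it was -0.78, the largest in size of the 7. Among the libraries, WT replicate 2 had the highest MYB12 level and the lowest CHS2 level, at 149 FPKM, and slgols2 replicate 1 had the lowest MYB12 level while CHS2 stood at 295 FPKM.

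**Figure D4:**
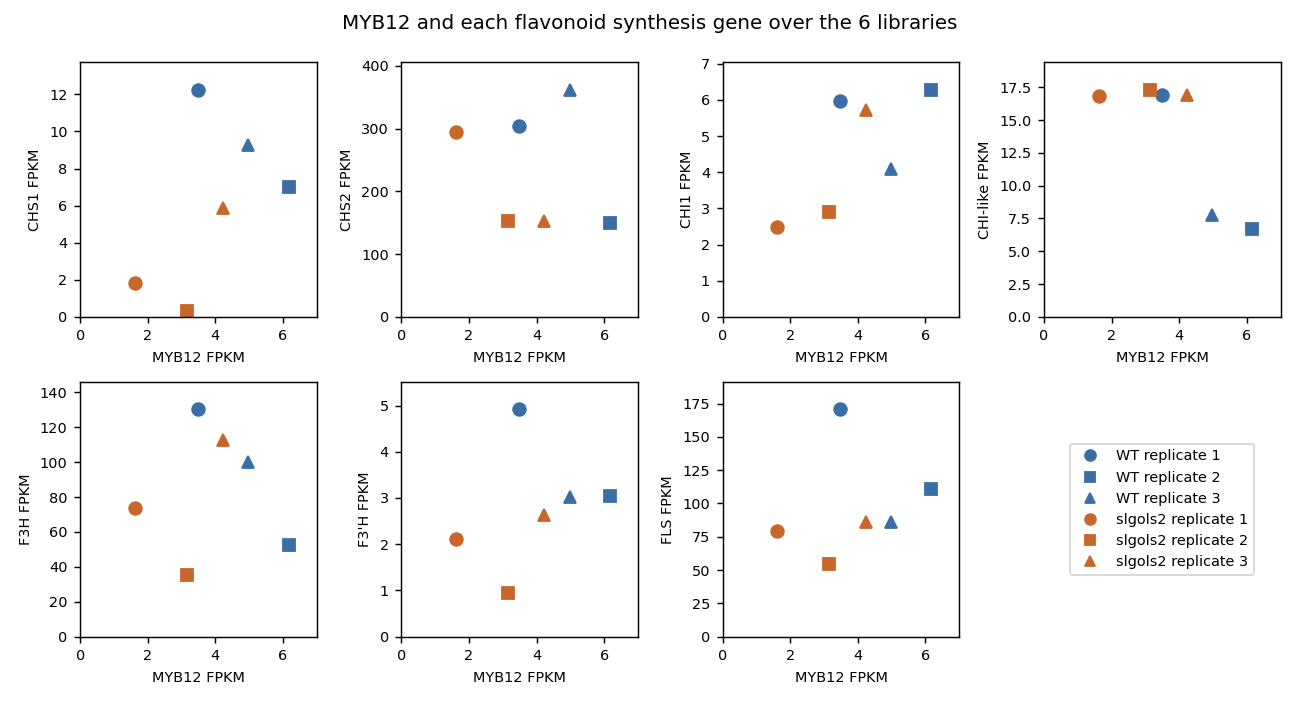
FPKM of MYB12 (horizontal axes) against FPKM of each of the 7 synthesis genes (vertical axes), with 1 symbol per library. WT libraries are blue and slgols2 libraries orange. CHI1 is the gene that runs most nearly with MYB12 (r = 0.76 on the log2 scale) and CHI-like runs against it (r = -0.74).

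Among the 15694 other tested gene models, the ones most like MYB12 over the 6 libraries were Solyc09g091740.3 and Solyc04g049690.3, each with r = 0.99 on the log2(FPKM + 1) scale. The ones most like CHS1 were Solyc07g054190.3 and Solyc02g086970.3, each with r of at least 0.99, and the latter stood at 444, 233 and 348 FPKM in WT and 47.6, 21.0 and 187 FPKM in slgols2 replicates 1, 2 and 3. With 6 libraries, a search over so many gene models finds some high values: of the 15694, 39 exceeded 0.95 with MYB12 and 62 with CHS1. F3'H was among the latter, at 0.951, and FLS reached 0.84 with CHS1, CHI1 0.80, F3H 0.78, MYB12 0.56 and CHS2 0.38. CHI-like ran the other way, at -0.44.

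The steps on either side of the flavonoid pathway were followed through 4 further lists of recalled loci. None of their tested members passed the threshold over all genes. The phenylpropanoid entry list holds phenylalanine ammonia-lyase, cinnamate hydroxylase and coumarate ligase loci, which supply coumaroyl-CoA. It had 8 tested members of 12, none of them for cinnamate hydroxylase, whose recalled identifier was not among the gene models. Of those tested, 2 were higher and 6 lower in mean, with a median log2 change of -0.47. PAL5 (Solyc09g007910.3), a phenylalanine ammonia-lyase in a row of close copies on chromosome 9 that may share reads, stood at 79.2, 54.8 and 12.3 FPKM in WT and 6.17, 26.6 and 20.1 FPKM in slgols2. WT replicates 1 and 2 were high and WT replicate 3 was within the slgols2 range (log2 change -1.28 ± 0.80, standard error, with a limma adjusted p of 0.577). The locus named 4CL, a coumarate ligase on chromosome 3 (Solyc03g117870.3), stood at 32.3, 17.8 and 15.1 FPKM in WT and 18.9, 18.3 and 5.54 FPKM in slgols2, with overlapping groups.

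The anthocyanin branch draws on the product of F3H, and its genes named in RefSeq had few reads except in 1 WT library. DFR, dihydroflavonol reductase (Solyc02g085020), held 6, 6 and 257 reads in WT and 1, 3 and 1 in slgols2. F3'5'H, the hydroxylase for delphinidin-type pigments (Solyc11g066580), held 64 reads in WT replicate 3 and at most 1 in any other library. AN2, a MYB activator of anthocyanin genes (Solyc10g086250), held 27, 11 and 96 reads in WT and 0 in every slgols2 library, and ANS, anthocyanidin synthase (Solyc08g080040), 34, 27 and 105 reads in WT against 32, 54 and 8 in slgols2. WT replicate 3 was the highest library for each of these 4 genes. The same library held the highest CHS2 value but not the highest CHS1, F3H, F3'H or FLS value. Solyc09g059170, a locus of the list without a name there, held most of the list's FPKM, at 71.7, 25.1 and 43.8 FPKM in WT and 21.7, 29.2 and 25.3 FPKM in slgols2. Of the 8 loci on the list 4 were tested, and none passed (lowest limma adjusted p = 0.507). Only 2 of them reached the filter of 1 FPKM without WT replicate 3, DFR not among them, so no direction is given for the list.

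Of the other regulators on the list, HY5, a light-signalling bZIP factor that in Arabidopsis activates MYB12 (Solyc08g061130), stood at 1.37, 1.66 and 0.83 FPKM in WT and 1.15, 4.48 and 1.39 FPKM in slgols2 replicates 1, 2 and 3. JAF13, a bHLH partner of MYB activators (Solyc08g081140), stood at 8.96, 13.8 and 11.1 FPKM in WT and 15.4, 10.5 and 14.6 FPKM in slgols2. Both had overlapping groups (limma adjusted p = 0.696 for HY5 and 0.709 for JAF13), and of the 3 tested regulators 2 were higher and 1 lower in mean. In the caffeoylquinate branch, which competes for coumaroyl-CoA, 2 of 3 members were higher in mean. HQT, the quinate transferase of chlorogenic acid synthesis (Solyc07g005760), stood at 1.48, 1.86 and 5.05 FPKM in WT and 3.77, 5.0 and 18.0 FPKM in slgols2, highest in replicate 3 (log2 change 1.22 ± 0.60, standard error, with a limma adjusted p of 0.485).

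**Figure D5:**
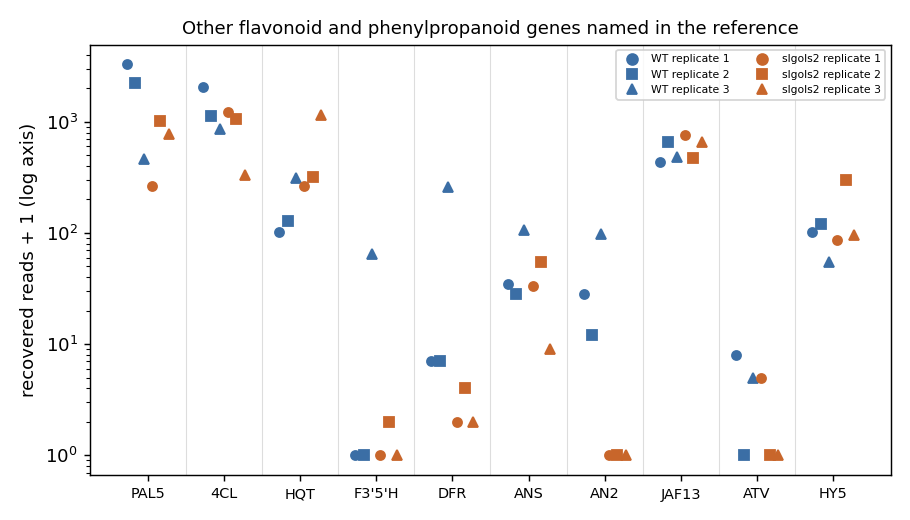
Recovered reads plus 1 (vertical log axis) in each library for the loci of the further lists that had reads and whose name lay at the matching place in RefSeq. WT libraries are blue and slgols2 libraries orange, with the shape giving the replicate. WT replicate 3 stands above the other 5 libraries for F3'5'H, DFR, ANS and AN2, at 257 reads for DFR.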

How the data were processed

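The deposited values are FPKM per gene model, 1 column per library, per the file headers. The submitters' processing notes list HISAT2 2.1.0 and DESeq 1.38.3. Strand setting, genome build, annotation and counting tool: not given in the sources used here. Libraries were grouped by title. Depth, gene lengths and reads were recovered from the FPKM steps: 97.7% of 1786 low genes gave a whole length within 0.01 bases, and 15694 of 15695 tested models gave whole reads within 0.02 in every library. Recovered lengths mostly resemble gene spans, so long introns lower FPKM.

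Models with a mean FPKM of at least 1 were fitted with limma 3.58.1 in R 4.3.3 on log2(FPKM + 1), genotype only, intensity trend, two-sided, Benjamini-Hochberg over all 15695 models. Checked on simulated data of 15695 genes (50 changed per size), it recovered 34% of genes lowered by 1 log2 unit and 70% by 2, with 11 false calls. The simulated noise was independent between genes, and only genes with a mean log2(FPKM + 1) above 2 were changed. These shares therefore need not hold for the 8 loci. Permutation tests used scipy 1.17.1. Members, lists and tests were chosen with earlier results of these data known. The lists rest on recalled identifiers: of 57 list loci, 19 names lay at the matching RefSeq place, 3 beside it, 8 elsewhere and 25 had no entry, and 2 loci were not in the table. Named were the 8 members, list loci with a matching place, and the 2 models most like MYB12 and the 2 most like CHS1. SHN1 and Solyc09g059170, without a RefSeq name, were singled out after their values were seen. Alternatives were the pseudocount, filter, scaling, trend, weights, robust fit, block, left-out libraries and limma-voom.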

Additional observations from a re-analysis of the deposited data

How the results depend on the processing

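No member passed in 15 of the 16 alternatives. With limma's sample quality weights 4 passed, all lower in slgols2 (CHS1 at -2.76, adjusted p = 0.0179; CHI1 at -0.77, F3'H at -1.15 and FLS at -1.07 on the log2 scale). That fit called 12.9% of all tested models, 6.85% lower, and weighted slgols2 replicate 2 at 4.83 and replicate 3 at 0.173. The direction held in 124 of 125 recomputed log2 changes, the exception being F3H (-0.77 to 0.048 over left-out libraries, 0.048 without slgols2 replicate 2). With 1 library left out, CHS1 ran from -2.44 without slgols2 replicate 3 (adjusted p = 0.0566, with 0.0179 to 0.717 over all alternatives) to -1.23 without slgols2 replicate 2. The others ran from -0.80 to -0.16 (CHS2), -0.79 to -0.32 (CHI1), 0.52 to 1.14 (CHI-like), -0.90 to -0.45 (F3'H), -0.92 to -0.43 (FLS) and -0.81 to -0.31 (MYB12). Over all genes the 36 calls became 15 when only models averaging 5 FPKM were tested, 55 unfiltered, 20 at pseudocount 0.1, 1 with limma-voom, 2028 with weights and 9 to 273 with 1 library left out. The stricter filter tests fewer genes, and for the others the cause was not tested.

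Under the replicate block, 0 members and 1 model in all passed, and CHS1 had an adjusted p of 0.426. Nothing shows that the numbers pair libraries, since deviations of same-numbered libraries correlated at -0.15, 0.089 and -0.17, and 2 of 6 libraries correlated best with their own number. The correlation with MYB12 changed sign for CHS2 without 2 libraries (0.48), for F3H on linear FPKM (-0.013), and within genotypes for F3H (-0.21), F3'H (-0.25) and FLS (-0.33). Dividing each level by the epidermis sum, a choice made after seeing the data, takes the WT to slgols2 ratio to 0.465 (CHS2), 0.635 (CHI1), 0.527 (F3H), 0.764 (F3'H), 0.637 (FLS) and 0.691 (MYB12). After the division it was 1.77 for CHS1 and 0.233 for CHI-like. These are ratios of mean quotients, taken library by library. The mean sum in WT was 2.29 times that in slgols2, above the undivided ratio of each locus but CHS1. The divisor itself lowers such ratios, and nothing about the loci is read from the turn. The summed chalcone synthase level and the counts of the further lists kept their direction or their count of 0 in each fit run on them. CHS1 in slgols2 replicate 2, with 10 reads, is the value of the 8 members that rests on the fewest reads.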

Other observations

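Of the summed FPKM of the 7 synthesis genes, CHI-like took 2.62%, 1.98% and 1.36% in WT replicates 1, 2 and 3 and 3.57%, 6.54% and 4.41% in slgols2, with no overlap. Its level did overlap, with WT replicate 1 at 16.9 FPKM and slgols2 replicate 1 at 16.8 FPKM. The sums in those libraries were 645 and 472 FPKM, so their shares parted through the divisor. CHS1 took 1.90%, 2.09% and 1.62% in WT and 0.383%, 0.109% and 1.54% in slgols2, with no overlap, as for its level, though slgols2 replicate 3 lay just under the lowest WT share. FLS took between 14.98% and 33.1% and CHS2 between 39.9% and 63.3%, both with overlapping groups. These shares were looked at after the levels had been seen, and no test was made of them.

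Loci recalled as seed storage proteins, markers of a tissue that should be absent from pericarp, summed to 6.45, 7.46 and 28.5 FPKM in WT replicates 1, 2 and 3 and to 0.867, 54.0 and 1.69 FPKM in slgols2. Of the 5 loci on the list 4 were detected, none with its name at the matching RefSeq place. The locus with a matching place, vicilin (Solyc09g082330), was at 0 in every library. A single recalled legumin locus gave 40.0 of the 54.0 FPKM in slgols2 replicate 2. The libraries with the highest sums were WT replicate 3, which held most of the DFR and F3'5'H reads, and slgols2 replicate 2, which held few of them and the lowest CHS1 level. The part of seed RNA in these values was not tested.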
